A study of Mus musculus with 4 samples.

Results

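The cytosolic ribosomal proteins are the building blocks of the ribosome outside the mitochondria. Their genes were taken by symbol: every row of the expression table named Rpl or Rps followed by a number and at most a letter a, x or y, the stalk genes Rplp0, Rplp1 and Rplp2, and Rpsa. This gave 76 genes of 24499 in the table, of which 43 encode proteins of the large subunit, 3 its stalk and 30 the small subunit. All 76 passed the filter on low values (1 CPM as the average of the 4 day means), as did 12109 genes in all, and these were tested.

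The ribosome translates mRNA into protein. Its small subunit reads the codons, and its large subunit joins the amino acids and passes the new chain out through an exit tunnel. Most ribosomal proteins are needed in equal numbers, and their genes are transcribed at high levels in growing cells. Their mRNAs commonly begin with a C and a run of pyrimidines (the TOP tract) through which mTOR and the binding protein LARP1 control their translation. Chondrocytes of the growth plate secrete large amounts of matrix protein, and defects of single ribosomal proteins in humans and mice affect blood formation, body patterning and, for some, the skeleton.

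The cells were a mouse line of growth plate-like chondrocytes (GPLC), in DMEM with serum, penicillin, streptomycin, ascorbic acid and an insulin, transferrin and selenium supplement, and were taken after 1, 3, 5 or 10 days. The labels name no genetic change and no further treatment for any day. They give 1 sample per day, while the table holds 3 libraries of day 1 (numbered 1, 3 and 4) and 4 libraries of each later day. No source says whether those libraries are separate cultures, so the p-values reflect how far libraries spread, and that spread may be technical. RNA was extracted from sorted cells by a gate that the labels do not describe, and ribosomal RNA was depleted before sequencing, so mRNAs were not selected by their poly(A) tail.

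Each library had 12492537 to 18841621 assigned reads. In CPM, reads scaled per library to a near-common total, a single read came to 0.0523 to 0.0787. The ribosomal protein genes took 512991 to 1384582 reads per library. Libraries 3 and 4 were closer to each other than to the other libraries on days 1, 3 and 5, with a mean chi-square per gene of 6.02 to 18.1, against 25.4 to 139.8 for the other pairs of those days. Counting noise alone gives a mean of about 1 and a lower median. The median per gene in these pairs was 0.704 to 1.71, so by the mean they still differed by more than counting noise. Whether the pair are separate cultures is not stated, so they were kept as separate libraries and results with the pair averaged are given where they differ. Averaged over the 4 day means, all 13 chondrocyte markers were at 1 CPM or more, although Matn1 had 0.897 CPM on day 1. By the same average, 3 of 10 macrophage and osteoclast markers, 0 of 7 endothelial markers and 1 of 7 muscle markers reached 1 CPM, with Adgre1, Tyrobp, Tie1, Myod1, Myog and Ckm at 0 in every library. The osteoblast and osteocyte markers summed to 7673 to 11528 CPM on day 1, 5009 to 9876 CPM on day 3, 5369 to 9610 CPM on day 5 and 7907 to 63614 CPM on day 10. The fibroblast and tendon markers summed to 1821 to 2129 CPM on day 1, 3051 to 4787 CPM on day 3, 5550 to 7335 CPM on day 5 and 5642 to 11333 CPM on day 10. Of the 6 of them tested, 5 rose on each later day against day 1, and Dcn, a small matrix proteoglycan, had 571 ± 111 CPM on day 5, against 3.85 ± 2.36 CPM on day 1. The 7 hypertrophic chondrocyte markers summed to 365 to 444 CPM on day 1 and 79.1 to 120 CPM on day 3. On day 5 their sum was 127 to 236 CPM and on day 10 it was 411 to 3453 CPM. Against day 1, 1 of them rose and 3 fell on day 5, and 4 rose and 1 fell on day 10. Among them Col10a1 fell to 5.17 ± 1.69 CPM on day 5, against 164 ± 55.8 CPM on day 1. The 13 chondrocyte markers summed to 5019 to 5771 CPM on day 1 and 12207 to 29072 CPM on day 3. Their sum was 3109 to 8809 CPM on day 5 and 3302 to 16637 CPM on day 10. Across the libraries r to the mean of the members was 0.75 for Dcn and -0.78 for Col10a1. The part of these marker genes in the results was not tested.

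The start-site windows of 7 members are shown because they place the members with the greatest and the least rise after day 1 beside members that carry the TOP tract. Each runs from 50 bases before to 20 bases from the annotated start, from RefSeq on GRCm38.p6, so the start is base 51 counted from the left. Capitals mark a TOP tract at the start or the motif CCGGAAG, the binding sequence of ETS factors such as GABP. Rps28 (chr17:33824543-33824612, minus strand) and Rpl36a (chrX:134585604-134585673, plus strand) were among the 3 that rose most on day 5. Rpl41 (chr10:128549149-128549218, minus strand) and Rps2 (chr17:24720013-24720082, plus strand) were among the 4 lowest. Rplp2 (chr7:141447601-141447670, plus strand), Rpl38 (chr11:114668530-114668599, plus strand) and Rps6 (chr4:86857348-86857417, minus strand) hold a tract at the start.
Rps28: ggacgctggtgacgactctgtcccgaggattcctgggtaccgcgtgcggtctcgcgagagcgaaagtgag
Rpl36a: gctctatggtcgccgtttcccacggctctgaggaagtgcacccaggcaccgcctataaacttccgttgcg
Rpl41: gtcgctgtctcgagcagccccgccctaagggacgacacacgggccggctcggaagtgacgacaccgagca
Rps2: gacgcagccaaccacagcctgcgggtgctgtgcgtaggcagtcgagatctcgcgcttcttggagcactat
Rplp2: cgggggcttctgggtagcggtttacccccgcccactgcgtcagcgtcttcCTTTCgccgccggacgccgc
Rpl38: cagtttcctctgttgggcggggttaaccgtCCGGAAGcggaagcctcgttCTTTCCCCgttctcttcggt
Rps6: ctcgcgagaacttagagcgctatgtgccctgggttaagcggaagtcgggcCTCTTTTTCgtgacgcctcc

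Windows from 250 bases before to 50 bases from the start were found for 56 of the 76 members and for 27025 genes in all. A TOP tract, searched as C at the first base followed by at least 4 C or T, stood at the annotated start of 13 members, 23.2%, and of 3.01% of all genes. Searched within 10 bases of the start, it was found in 60.7% of members and in 33.3% of all genes. The motif CCGGAAG, searched on both strands, stood in a window of 41.1% of these members and of 9.93% of all genes. AAGATGGC, the core bound by YY1, was searched on both strands and stood in 8.93% and 3.19%, and CTTTCC, searched on the transcribed strand and overlapping some TOP tracts, in 41.1% and 16.0%. These are matches of letters, and an annotated start can differ from the one the cells used. The 13 members with the tract had a median log2 difference of 0.67 for day 5 minus day 1, and the 43 without it 0.73, so the rise described next was of similar size in both. Members with and without CCGGAAG had medians of 0.70 and 0.73.

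The summed level of the 76 genes was lowest on day 1, highest on day 5 and lower again on day 10. It was 38005 ± 1318 CPM on day 1 (SD, n = 3), 59339 ± 9106 on day 3, 64268 ± 12494 on day 5 and 49500 ± 5458 on day 10 (n = 4 each). As a share of all assigned reads this was 3.89 ± 0.175%, 6.06 ± 0.996%, 6.39 ± 1.13% and 4.81 ± 0.706% in the same order of days. The 3 libraries of day 1 summed to 37638, 36910 and 39467 CPM. The 4 libraries of day 3 summed to 50388, 72049, 57348 and 57572 CPM, and those of day 5 to 49538, 79773, 66187 and 61576 CPM. On day 10 the sums were 48394, 52269, 54958 and 42380 CPM. By summed CPM, no library of a later day fell to the level of day 1, while the libraries of days 3, 5 and 10 overlapped. As a share of assigned reads, however, library 4 of day 10, at 3.87%, lay within the 3.75% to 4.09% of day 1. In bulk RNA, fewer cells that make these mRNAs and less of the mRNA per cell cannot be told apart.

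**Figure D1:**
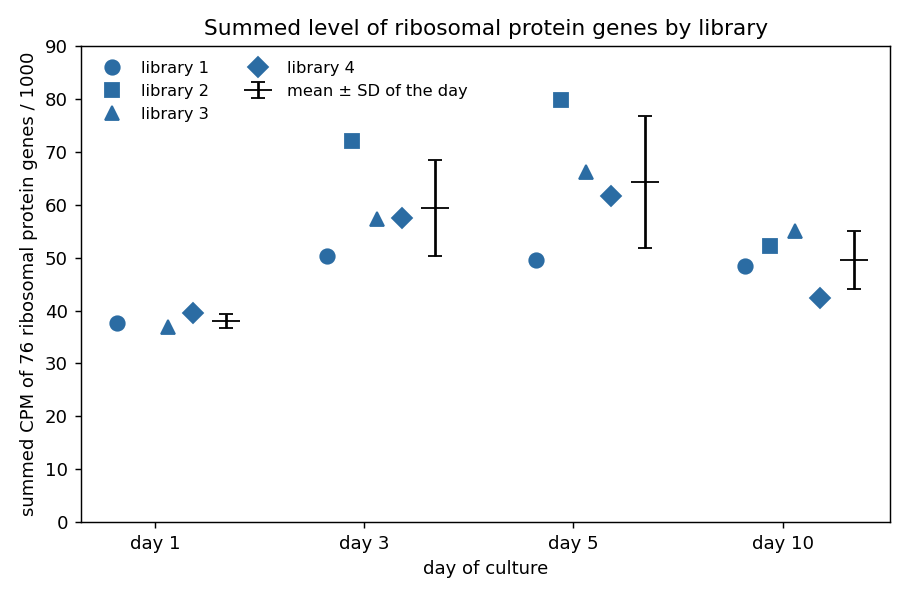
Summed CPM of the 76 ribosomal protein genes (vertical axis, CPM divided by 1000) for each library by day of culture, with the mean ± SD of each day beside the points. The 3 libraries of day 1 lie between 36910 and 39467 CPM, below every later library, and library 2 is highest on days 3 and 5.

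The course was shared by most members. For 65 of the 76 the day means rose at each step over days 1, 3 and 5 and were lower on day 10 than on day 5. The highest mean was on day 5 for 65 genes, on day 3 for 10 and on day 10 for Rps2 alone, and the lowest was on day 1 for 73. The shares of all genes with these shapes were not counted, and the members moved together across libraries. Between days 3 and 5, 0 members passed the test. Without library 2 of day 5 the mean sum of day 5 was 59100 CPM, below the 59339 CPM of day 3. Without library 2 on either day the sums were 55103 CPM on day 3 and 59100 CPM on day 5. Library 2 held the highest value of its day for all 76 members on day 3 and on day 5, and library 1 the lowest for 74 on day 3 and for 69 on day 5. On day 10, library 4 held the lowest value for 54 members and the highest for 9. The small subunit sum was 0.714 to 0.755 of the large subunit and stalk sum in all libraries but library 4 of day 10, where it was 0.808.

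**Figure D2:**
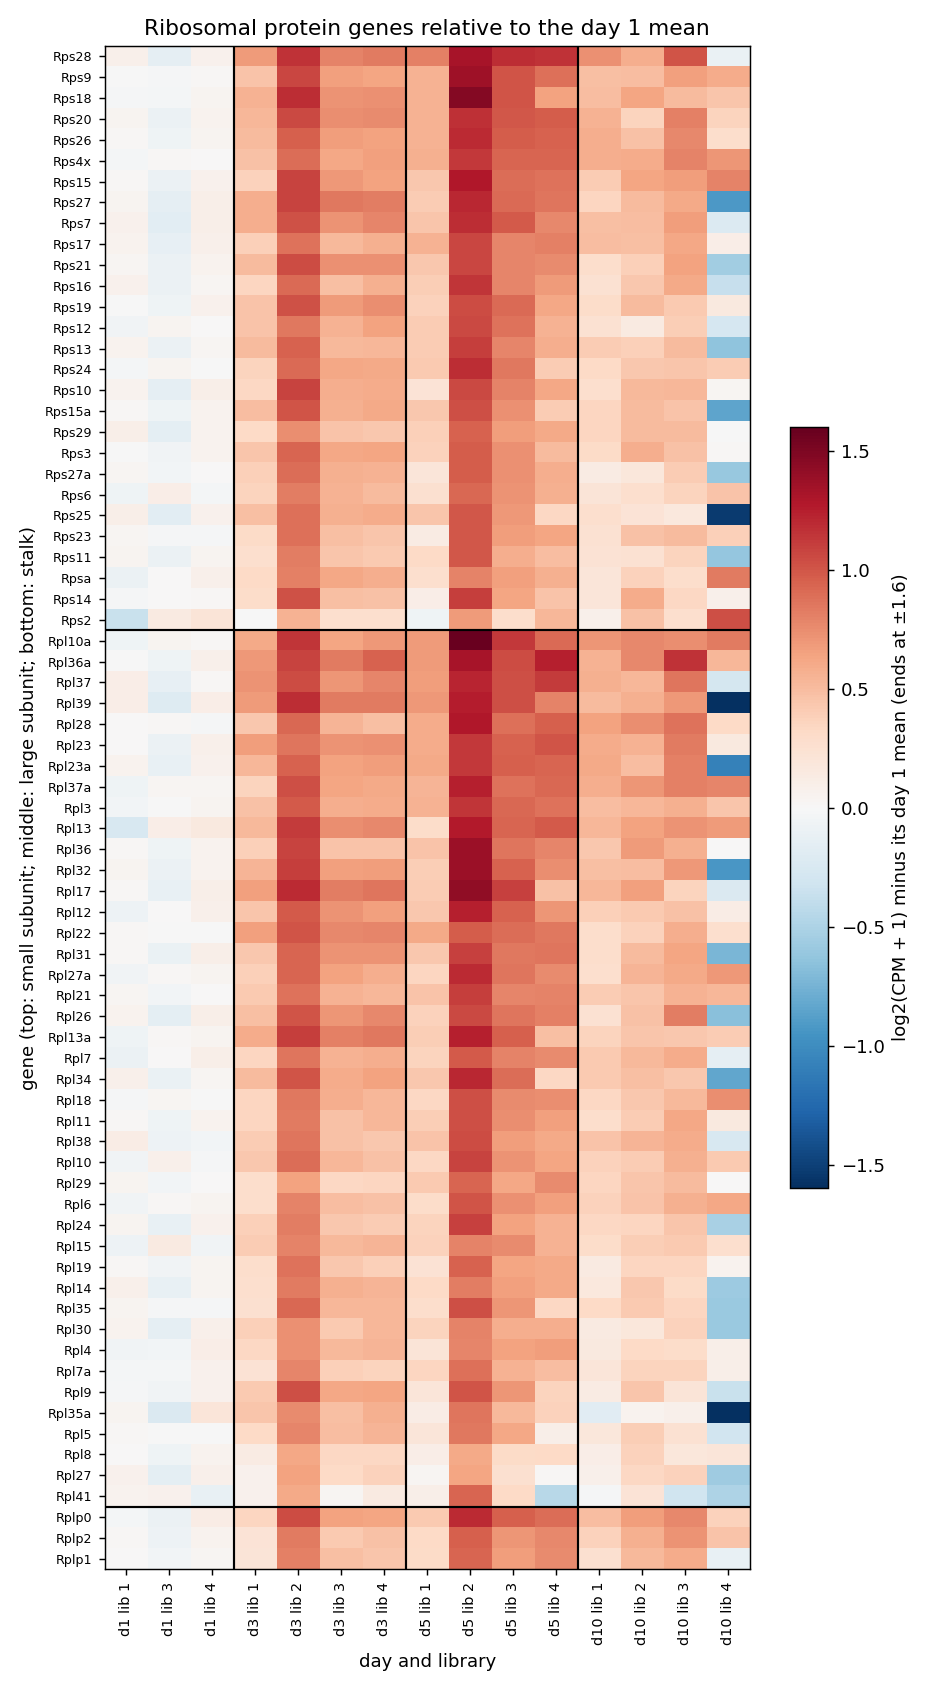
Heat map of 73 of the 76 genes (rows, small subunit above, large subunit in the middle and stalk below, ordered by day 5 minus day 1) in each of the 15 libraries (columns by day), as log2(CPM + 1) minus its day 1 mean. Red is higher and blue lower, with colours ending at ±1.6. Days 3 and 5 are red for nearly all genes, and library 4 of day 10 holds both the bluest cells (Rpl39, Rpl35a, Rps25) and red ones (Rps2).

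Day 3 was compared with day 1 to see what changed early in culture. Of the 76 members 58 rose and 0 fell (limma on log2(CPM + 1), Benjamini-Hochberg adjusted p under 0.05 over 12109 genes), when 15.7% of all genes tested rose and 16.1% fell. The median log2 difference of the members was 0.63 ± 0.21 (SD between libraries), a 1.55-fold higher level on day 3, and the median of all genes was -0.02. In 73 members every day 3 library lay above every day 1 library, which held for 24.1% of all genes. The small subunit had a median of 0.65 with 24 of 30 genes higher, and the large subunit 0.59 with 32 of 43 higher. Without library 2 of day 3 the median was 0.53 and 34 members rose, with 13.9% of all genes higher. The count was 29 when libraries 3 and 4 of a day were averaged, with 10.23% of all genes higher. It was 34, 30 and 37 without libraries 1, 3 and 4 of day 1, with 11.54%, 10.72% and 10.96% of all genes higher.

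Day 5 against day 1 gave the most calls. Of the 76 members 67 rose and 0 fell, when 25.2% of all genes rose and 24.8% fell. The median log2 difference was 0.72 ± 0.28, or 1.65-fold, and that of all genes 0.01. In 72 members the day 5 libraries all lay above those of day 1, against 30.0% of all genes, and 5 members were at least 2-fold higher, against 10.5% of all genes. Most members that rose thus did so by less than 2-fold. Both subunits had a median of 0.72 to 0.73, with 27 of 30 small subunit, 37 of 43 large subunit and 3 of 3 stalk genes higher. Without library 2 of day 5 the median was 0.61 and 54 members rose, with 24.6% of all genes higher.

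On day 10 the rise was smaller. Against day 1, 26 members rose and 0 fell, when 24.3% of all genes rose and 25.1% fell, so the share of members, 34.2%, was closer to that of all genes than on the earlier days. The median log2 difference was 0.34 ± 0.21, or 1.27-fold. In 37 members all day 10 libraries lay above those of day 1, against 25.4% of all genes. Without library 4 of day 10, 44 members rose, with 23.7% of all genes higher, the median was 0.45, and in 73 members the remaining day 10 libraries lay above day 1, against 28.8% of all genes. The count of 26 was 9 with libraries 3 and 4 averaged, when 18.3% of all genes rose. It was 17 with each library rescaled to the same total, when 21.5% of all genes rose, 16 without library 3 of day 1 (20.4%) and 17 without library 3 of day 10 (23.3%). In these fits the share of members called was near or below that of all genes. The comparisons with day 1 share its 3 libraries and are not independent of each other.

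Between the later days few members passed the test. Day 5 against day 3 gave 0 members higher and 0 lower with limma, edgeR and DESeq2 alike, while limma called 9.13% of all genes in either direction. The median was 0.11 ± 0.28, and 63.7% of all genes had a lower difference. Day 10 against day 5 gave 0 higher and 2 lower members, when 3.75% of all genes rose and 2.02% fell. The share of members that fell, 2.63%, was thus near that of all genes. The median of the members was -0.37 ± 0.20, and 11.2% of all genes had a lower difference. The count of members lower was 3 with edgeR and 5 with DESeq2, when 1.82% and 3.45% of all genes fell. It was 0 to 7 when each library was left out in turn, with 0.553% to 3.15% of all genes lower. With the library number as a replicate block, as pairs of libraries, 15 were lower, when 5.25% of all genes fell. With libraries 3 and 4 averaged 0 were, with 0.115% of all genes lower.

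**Figure D3:**
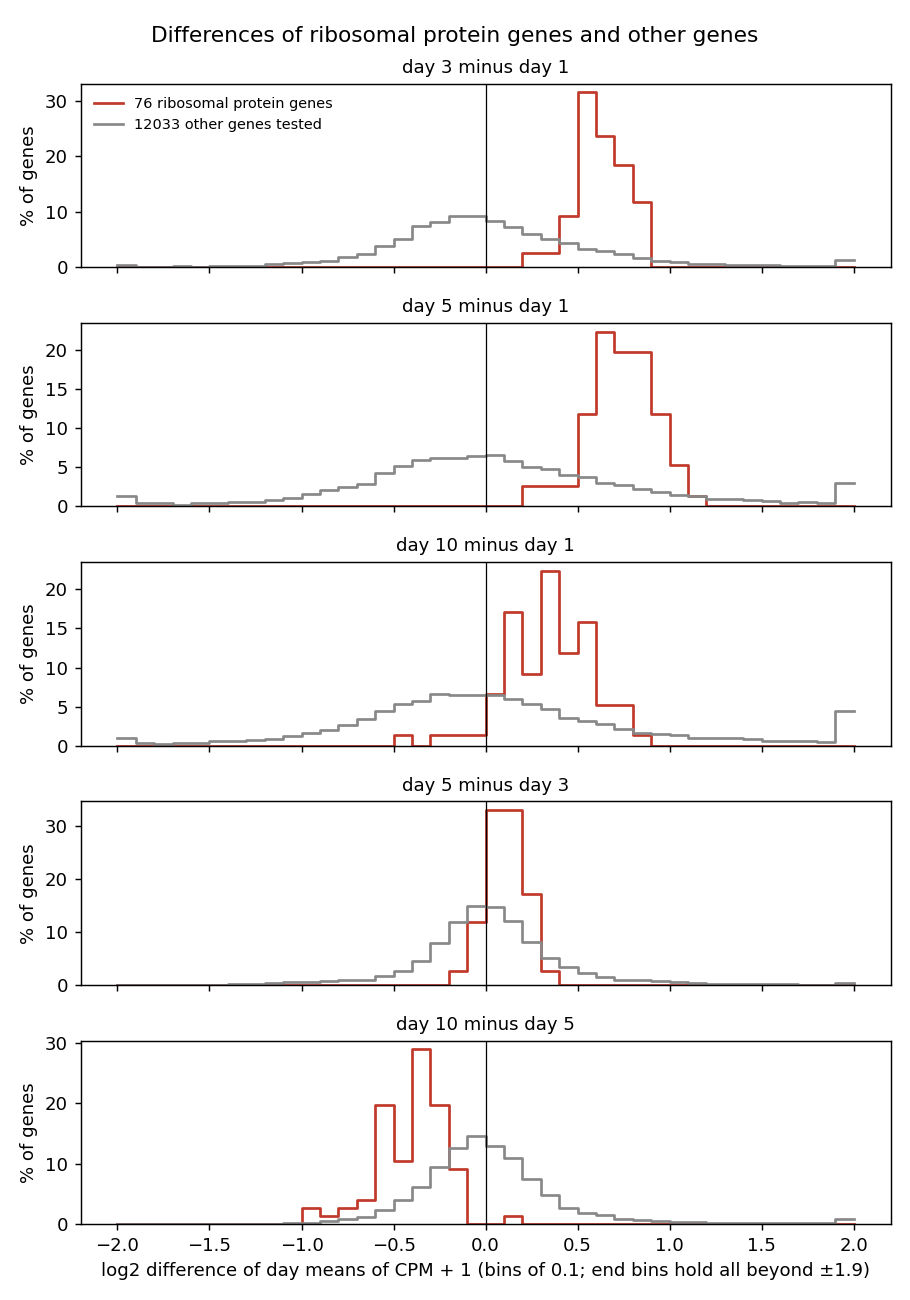
Share of genes (vertical axis, %) by log2 difference of day means (horizontal axis, bins of 0.1) for the 76 ribosomal protein genes in red and the other genes tested in grey, in the 5 comparisons, later minus earlier day. The red curve lies around 0.63, 0.72 and 0.34 against day 1, around 0.11 for day 5 minus day 3 and around -0.37 for day 10 minus day 5, while the grey curve is centred near 0.

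Short coding sequences and library effects were measured beside these results. Members have a median coding length of 454.5 bases, against 1419 bases for the other genes tested. The 729 other genes with coding sequences no longer than the median member had median log2 differences of -0.11, -0.19 and -0.29 on days 3, 5 and 10 against day 1. Those of the members were 0.63, 0.72 and 0.34. The part of coding length in these differences was not tested. In library 2 of days 3 and 5, in which all members were highest, the deviation of other genes from the other libraries of the day correlated with coding length at Spearman's rho of -0.45 and -0.39 (11236 genes, a description over genes of the same libraries). The part of this library effect in the results was not tested, and the values without these libraries stand above.

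The members with the largest rises were spread over both subunits. Rps28, a small subunit protein near the path of the mRNA, had 780, 1114, 1015 and 994 CPM on day 5, against 470, 402 and 466 CPM on day 1. The day 5 libraries all lay above those of day 1, with a log2 difference of 1.12 ± 0.21 (SE, limma adjusted p = 0.00055, n = 4 and 3 libraries). Rpl10a, a large subunit protein found on only part of the ribosomes of mouse stem cells, had 290, 540, 397 and 340 CPM on day 5, against 172, 186 and 183 CPM on day 1. Its lowest day 5 library was well above its highest day 1 library (log2 1.08 ± 0.17, adjusted p = 0.00015). Rpl36a, which lies near the exit site of the transfer RNA, had 254, 398, 328 and 378 CPM on day 5, against 157, 152 and 167 CPM on day 1. It too was separated between the days (1.07 ± 0.17, adjusted p = 0.00011). Rpl37, also of the large subunit, rose by 1.01 ± 0.21.

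On day 3 the highest differences belonged to Rpl36a (0.89 ± 0.17, limma adjusted p = 0.0013), Rpl17 (0.88 ± 0.25, adjusted p = 0.014) and Rpl39, whose 0.88 ± 0.43 did not pass (adjusted p = 0.13). On day 10 Rpl10a was among the 3 highest (0.76 ± 0.17, adjusted p = 0.0022). Between days 5 and 3 the highest were Rpl28 (0.33 ± 0.15), Rpl10a (0.31 ± 0.16) and Rpl29 (0.28 ± 0.13) and the lowest Rpl27 (-0.11 ± 0.19), Rpl9 (-0.11 ± 0.20) and Rpl35a (-0.09 ± 0.33), none of which passed. Rpl29, whose loss makes mice small, rose on day 3 (0.40 ± 0.14, adjusted p = 0.038) and day 5 (0.68 ± 0.14, adjusted p = 0.00093) against day 1. It had 188, 267, 216 and 238 CPM on day 5, against 145, 135 and 141 CPM on day 1, with no overlap.

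A few members moved little. Rpl41, a very short basic protein of the large subunit with a coding sequence of 75 bases, had 577, 1033, 677 and 397 CPM on day 5, against 562, 568 and 498 CPM on day 1. The days overlapped and the log2 difference of 0.22 ± 0.26 did not pass (limma adjusted p = 0.49). Rpl27 had 155, 234, 181 and 154 CPM on day 5, against 159, 136 and 160 CPM on day 1, also with overlap (0.24 ± 0.21, adjusted p = 0.37). Rpl8, a protein close to the centre that joins amino acids, stood at 0.34 ± 0.15 (adjusted p = 0.075), and its day 5 libraries of 1165, 1647, 1343 and 1354 CPM all lay above its day 1 libraries of 1085, 1035 and 1128 CPM. Rps2, at the entry of the mRNA channel, had 836, 1411, 1067 and 1269 CPM on day 5, against 688, 969 and 1014 CPM on day 1 (0.36 ± 0.24, adjusted p = 0.22). Its highest library was library 4 of day 10 at 1792 CPM, and it followed the other members least, with a Pearson r of 0.31 to their mean over 15 libraries.

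The stalk recruits elongation factors to the ribosome. Rplp0, its base, had 1670, 2852, 2410 and 2324 CPM on day 5, against 1221, 1172 and 1351 CPM on day 1, and rose by 0.87 ± 0.20 (limma adjusted p = 0.0024). Rplp1 had 1700, 2634, 2194 and 2322 CPM on day 5, against 1387, 1336 and 1408 CPM on day 1, and rose by 0.67 ± 0.20 (adjusted p = 0.014). Rplp2, its partner in the dimers on Rplp0, had 444, 687, 577 and 607 CPM on day 5, against 360, 335 and 369 CPM on day 1, and rose by 0.69 ± 0.16 (adjusted p = 0.0025). The libraries of day 5 were all above those of day 1 for each of the 3. On day 10 Rplp0 and Rplp2 were still higher than on day 1, by 0.57 ± 0.20 (adjusted p = 0.028) and 0.53 ± 0.16 (adjusted p = 0.013), while Rplp1 did not pass at 0.31 ± 0.20 (adjusted p = 0.22).

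Rpl5 and Rpl11 form, with the 5S RNA, the particle that can also bind Mdm2 and so stabilize p53. Rpl11 had 470, 732, 596 and 564 CPM on day 5, against 362, 338 and 369 CPM on day 1, and rose by 0.71 ± 0.16 (limma adjusted p = 0.0017). Rpl5 had 276, 434, 370 and 258 CPM on day 5, against 244, 239 and 239 CPM on day 1, a difference of 0.44 ± 0.19 that did not pass (adjusted p = 0.063, and 0.045 with the replicate block), though it passed on day 3 (0.53 ± 0.19, adjusted p = 0.042). Rpl5 shares 24.3% of its annotated exon bases with another gene, so part of its reads may not be its own.

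Members named in skeletal, blood or patterning defects did not all pass on day 5. Rpl35a, mutated in human Diamond-Blackfan anaemia, stood at 0.47 (limma adjusted p = 0.3), with overlap between the days, and Rpl5, mutated in the same disease, is given above. The 5 described next rose. Rpl13, mutated in a human dysplasia of spine and long bones, had 668, 1316, 1048 and 1082 CPM on day 5, against 459, 587 and 607 CPM on day 1 (0.87 ± 0.20, limma adjusted p = 0.0023). It was still higher on day 10 (0.64 ± 0.20, adjusted p = 0.015), with 792, 852, 904 and 877 CPM, all above day 1. Rpl38, whose loss of a copy shortens the tail and changes the vertebrae of mice, had 458, 689, 529 and 507 CPM on day 5, against 362, 314 and 324 CPM on day 1 (0.70 ± 0.20, adjusted p = 0.0083). Rps19 and Rps26, both mutated in human Diamond-Blackfan anaemia, rose by 0.73 ± 0.16 (adjusted p = 0.0019) and 0.92 ± 0.17 (adjusted p = 0.00048). Rps26 had 1465, 2262, 1944 and 1912 CPM on day 5, against 1005, 949 and 1024 CPM on day 1, and Rps19 had 542, 864, 785 and 647 CPM on day 5, against 420, 402 and 439 CPM on day 1. Rps14, lost in a human myelodysplastic syndrome, rose by 0.57 ± 0.21 (adjusted p = 0.035). For each of these genes the day 5 libraries lay wholly above those of day 1.

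The other members with textbook roles followed. Rps6, which S6 kinases phosphorylate when mTOR is active, had 314, 496, 430 and 390 CPM on day 5, against 249, 283 and 256 CPM on day 1 (0.62 ± 0.15, limma adjusted p = 0.0027). Rpl3, next to the centre that joins amino acids, rose by 0.87 ± 0.15 (adjusted p = 0.00027), and Rpl10, which joins late in assembly, by 0.69 ± 0.16 (adjusted p = 0.0023). Rpl3 had 1093, 1638, 1400 and 1354 CPM on day 5, against 717, 741 and 767 CPM on day 1. Rps4x, encoded on the X chromosome, rose by 0.89 ± 0.14 (adjusted p = 0.00014), and Rps3, at the entry of the mRNA, by 0.64 ± 0.17 (adjusted p = 0.0064). Rpsa, also known as a laminin receptor, rose by 0.57 ± 0.18 (adjusted p = 0.014), and Rps27a, made as a fusion with ubiquitin, by 0.62 ± 0.22 (adjusted p = 0.027). The day 5 libraries of each were all above its day 1 libraries.

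Of the 2 members lower on day 10 than on day 5, Rpl22, which T cells of mice need to develop, had 332, 353, 411 and 329 CPM on day 10, against 415, 535, 508 and 493 CPM on day 5, without overlap (-0.45 ± 0.11, limma adjusted p = 0.027). It had risen most evenly on day 5, to values far above the 276, 273 and 272 CPM of day 1 (0.83 ± 0.12, adjusted p = 5.9e-05). Among the 3 highest differences here were those of Rps2 (0.11 ± 0.22) and Rpl8 (-0.12 ± 0.14).

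Library 4 held the lowest values of day 10. Rpl35a of the large subunit had 217, 256, 261 and 64.2 CPM on day 10, against 267, 445, 354 and 318 CPM on day 5, and its difference of -0.95 ± 0.33 did not pass (limma adjusted p = 0.1). Rpl39, a small basic protein lining the exit tunnel, had 416, 437, 477 and 84.1 CPM on day 10, against 477, 705, 603 and 511 CPM on day 5 (-0.95 ± 0.40, adjusted p = 0.16). Rps25, a small subunit protein on which some viral RNAs depend, had 441, 424, 411 and 126 CPM on day 10, against 496, 725, 593 and 458 CPM on day 5 (-0.83 ± 0.31, adjusted p = 0.12). Rps25 shares 24.8% of its annotated exon bases with other genes, so part of its reads may not be its own. In each of the 3 genes, libraries 1 to 3 lay near one another and library 4 far below. The same 3 genes had 3 of the 4 lowest differences of day 10 against day 1 (Rpl35a -0.49 ± 0.36, Rps25 -0.22 ± 0.33 and Rpl39 -0.00 ± 0.43), with Rpl41 at -0.15 ± 0.26, and none passed.

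Set against the mean of libraries 1 to 3 of day 10, library 4 had a median log2 deviation of -0.42 over the 76 members, with -2.38 for Rpl39 at the low end. Rps2 stood at 0.75, with 928, 1215, 1062 and 1792 CPM on day 10, against 688, 969 and 1014 CPM on day 1, so library 4 was highest there. Over the members the deviation had a Spearman's rho of 0.49 with coding length and 0.39 with the GC content of the coding sequence, given as a description of 1 library. Over 11236 other genes rho was 0.27 with coding length and 0.57 with GC. Their part in the day 10 values was not tested.

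**Figure D4:**
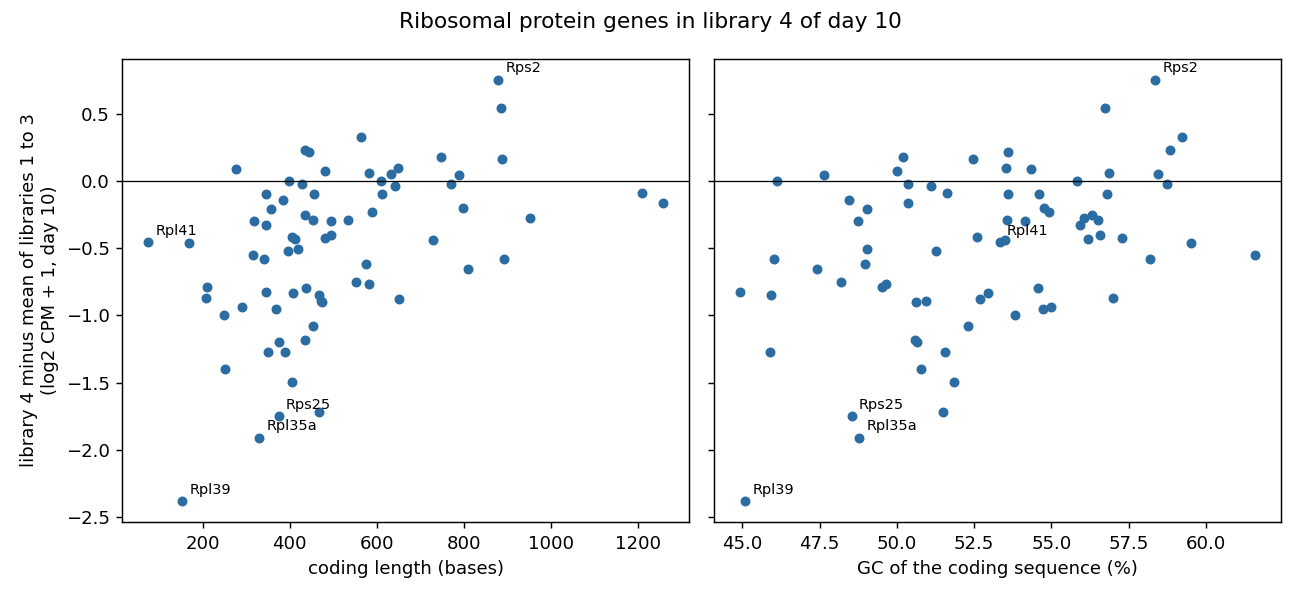
Deviation of library 4 of day 10 from the mean of libraries 1 to 3 (vertical axis, log2 CPM + 1) for 73 of the 76 genes, against coding length in bases (left) and GC content of the coding sequence in % (right). Rpl39, Rpl35a and Rps25 lie near the bottom, down to -2.38, and Rps2 at the top, at 0.75.

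Levels between members were compared per length. Per kilobase of annotated exon, averaged over the 4 day means, Rplp1 stood highest at 3644 CPM, followed by Rps15, a small subunit protein near the decoding site, at 2267 and Rpl4 of the exit tunnel at 1227. Rps15a, Rpl5 and Rpl35a stood lowest at 74.6, 76.1 and 82.1. In these 3 the annotated exons are far longer than the coding sequence. Per kilobase of coding sequence the same 3 genes had 1200, 335 and 877 CPM, and Rplp1, Rps15 and Rpl4 had 5316, 3283 and 1959. Without regard to length, member means ran from 172 CPM for Rpl27 to 2462 CPM for Rpl4, with a median of 554, and the 10 highest members made up 29.6% of the summed CPM.

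For 73 of the 76 members the genome holds at least 1 near-identical copy (at least 95% identity over 80% or more of the coding sequence), 572 in all and up to 57 for a single gene. The sources used here do not say how reads matching several places were counted, so levels of single members are uncertain. Copies of 17 members are rows of the table. Rpl8 and Rps3 have no such copy, and their differences for day 5 against day 1 were 0.34 and 0.64. The members lie on 19 chromosomes, and 29 of them hold 56 small nucleolar RNA genes inside their bounds. Since counting by strand is not stated, exon bases shared with a gene on the opposite strand cannot be told apart either.

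Across the 15 libraries the members followed one another closely. The Pearson r of log2(CPM + 1) between a member and the mean of the others had a median of 0.92 and was 0.9 or more for 50 of 76. The lowest were Rps2 at 0.31 and Rpl41 at 0.60. Of 9351 other genes averaging at least 10 CPM, 26 reached 0.9 to the mean of the members, and the median was -0.07. The 10 most alike were Eef1a1 (0.989), the elongation factor that delivers transfer RNAs, Rps3a1 (0.983), Eif3h (0.967), Ndufa6 (0.960), Tpt1 (0.958), Eif3k (0.954), Fahd1 (0.953), Igbp1 (0.945), Rack1 (0.943) and Naca (0.937). Rps3a1 and Rack1 are themselves proteins of the small subunit whose symbols the naming pattern leaves out. These correlations describe 15 libraries that share day, depth and the library effects given above.

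Rps3a1, Fau and Rack1 encode proteins of the small subunit under other symbols, and all of them rose on day 5 against day 1. Rack1, a signalling scaffold, had 2583 ± 576 CPM on day 5 (SD, n = 4), against 1409 ± 57.9 on day 1 (n = 3), and rose by 0.85 (limma adjusted p = 0.0022). Fau, a fusion of a ubiquitin-like and a small subunit protein, rose by 0.63 (adjusted p = 0.0096) and Rps3a1 by 0.75 (adjusted p = 0.0026). Rack1 alone of these passed on day 10 (0.58, adjusted p = 0.021), where Rps3a1 stood at 0.31 (adjusted p = 0.15) and Fau at 0.31 (adjusted p = 0.17).

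The paralogs of ribosomal proteins differed among themselves. Of 8 listed paralogs, 4 passed the filter. Of these, 1, 1 and 0 rose and 0, 1 and 2 fell on days 3, 5 and 10 against day 1. Of all genes tested, 15.7%, 25.2% and 24.3% rose and 16.1%, 24.8% and 25.1% fell on these days. The same shares apply to the lists below. Rpl22l1, the paralog of Rpl22, had 248 ± 53.3 CPM on day 5, against 141 ± 5.73 on day 1, and rose by 0.79 (limma adjusted p = 0.015), beside 0.83 for Rpl22. Rps27l, a paralog of Rps27 that p53 induces, had 88.1 ± 20.1 CPM on day 5 and 69.6 ± 35.0 on day 10, against 243 ± 26.3 on day 1, and fell by 1.48 (adjusted p = 0.0037) and 1.98 (adjusted p = 0.00044) on the log2 scale. Rps27 itself, chosen here as its counterpart, had 427, 747, 605 and 583 CPM on day 5, against 333, 292 and 344 CPM on day 1, and rose by 0.84 ± 0.29 (adjusted p = 0.024). The pair thus moved in opposite directions on day 5. Rpl36al was lower on day 10 than on day 1 (-0.59, adjusted p = 0.045), and Rpl7l1 stood at -0.17 on day 5 (adjusted p = 0.22). Rpl39l and Rpl10l were at 0 in every library.

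Of 22 translation factors and other genes with TOP-type mRNAs, 9, 10 and 5 rose and 1, 1 and 3 fell on days 3, 5 and 10 against day 1, with medians of 0.32, 0.35 and 0.12. On day 10 the share that rose was near that of all genes, 24.3%. Without library 2 of day 3, 5 rose on day 3, and with libraries 3 and 4 averaged 3 rose on day 3 and 3 on day 10. Eef2, the elongation factor that moves the ribosome along, had 11754 ± 1922 CPM on day 5, against 5457 ± 427 on day 1 (1.09, limma adjusted p = 0.0031). Tpt1 and the helicase cofactor Eif4b rose by 1.04 (adjusted p = 0.0013) and 0.93 (adjusted p = 2e-05). Ybx1, an mRNA-binding protein, fell by 0.63 (adjusted p = 0.00062), and the helicase Eif4a1 (-0.27, adjusted p = 0.079, and 0.0081 with the replicate block) and Nap1l1 (-0.14, adjusted p = 0.48) did not pass on day 5.

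Listed genes that act on ribosomal proteins or on new subunits mostly moved the other way. Of 17 chaperones, import and export factors, 0, 1 and 1 rose and 6, 12 and 12 fell on days 3, 5 and 10 against day 1, with medians of -0.34, -0.44 and -0.52. Xpo1, the exportin that carries both subunits out of the nucleus, had 199 ± 31.7 CPM on day 5, against 466 ± 30.6 on day 1 (-1.23, limma adjusted p = 0.00036). Eif6, which keeps new large subunits from joining too soon, had 84.8 ± 10.9 CPM on day 5, against 173 ± 9.74 on day 1 (-1.03, adjusted p = 8.8e-05), and Grwd1, a chaperone of Rpl3, fell by 0.70 (adjusted p = 0.0011). Pdcd2, a chaperone of Rps2, was the list's gene that rose on day 5 (0.50, adjusted p = 0.0084). Ipo4 (0.31) and Aamp (0.17) did not pass, although Ipo4 did with the replicate block (adjusted p = 0.049).

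Of 22 genes of mTOR signalling and TOP control tested, 1, 2 and 4 rose and 3, 9 and 7 fell on days 3, 5 and 10, with medians of -0.16, -0.28 and -0.20, so the list went both ways. The 3 lower on day 3 were a smaller share than the 16.1% of all genes. They were 5 without library 4 of day 10 and 6 with the replicate block. The 2 higher on day 5 were 4 in both of these fits, and the 4 higher on day 10 were 2 with libraries 3 and 4 averaged. Larp1 had 299 ± 36.5 CPM on day 5, against 468 ± 19.1 on day 1, and fell by 0.65 (limma adjusted p = 0.0031). Across the 15 libraries its r to the mean of the members was -0.96, and it was named after its values were seen. Eif4e, the protein that binds the mRNA cap, fell by 1.17 (adjusted p = 0.0022), Atf4, a stress-response transcription factor, by 1.07 (adjusted p = 0.0097) and Sesn2, an inhibitor of mTORC1, by 0.88 (adjusted p = 0.02). Deptor, another inhibitor of mTOR, rose by 0.97 (adjusted p = 0.00064) and Tsc2 by 0.51 (adjusted p = 0.0052), while Tsc1 did not pass (0.46, adjusted p = 0.056, and 0.0025 with the replicate block). The transcript of a kinase or its regulator does not measure mTOR activity.

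Of the 12 tested transcription factors known to act at ribosomal protein genes, 1, 3 and 2 rose on days 3, 5 and 10. On the same days 2, 5 and 5 fell, all against day 1. The shares higher were near or below those of all genes, and the share lower on day 3 was near that of all genes. Myc, the growth-promoting factor, was low and rose to 14.2 ± 5.70 CPM on day 5, against 4.68 ± 1.95 on day 1 (1.43, limma adjusted p = 0.0038). Max, its partner, and Elk1, an ETS factor, rose by 0.36 (adjusted p = 0.0034) and 0.38 (adjusted p = 0.0044). Gabpb1, a subunit of the ETS factor GABP, fell by 0.74 (adjusted p = 0.00018), and the TATA-binding protein Tbp and its relative Tbpl1 by 0.51 (adjusted p = 0.035) and 0.62 (adjusted p = 0.0028). Of the 4 tested genes of the Mdm2 and p53 pathway, 0 rose, and 1, 3 and 1 fell on the same days. The 3 lower on day 5 were 1 with libraries 3 and 4 averaged, when 19.4% of all genes fell. They were 2 with the replicate block, when 28.4% of all genes fell. Mdm2 fell by 0.88 (adjusted p = 6.2e-05), Cdkn1a by 1.53 (adjusted p = 0.011) and Trp53 by 0.28 (adjusted p = 0.046, and 0.061 with the replicate block) on day 5, and Mdm4 stood at 0.25 (adjusted p = 0.35).

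Other large complexes did not share the rise. Of the 77 mitochondrial ribosomal proteins, 1, 1 and 0 rose and 15, 36 and 43 fell on days 3, 5 and 10 against day 1, with medians of -0.23, -0.35 and -0.43. On day 3 the share that fell was near that of all genes, 16.1%. With libraries 3 and 4 averaged, 3 fell on day 3 and 22 on day 10. On day 3, 24 fell without library 4 of day 10 and 33 with the replicate block. Mrpl20, Mrpl18 and Mrps22 were lowest on day 5, at -1.09 (limma adjusted p = 0.00066), -1.02 (adjusted p = 1e-05) and -0.89 (adjusted p = 0.0026). Mrps6 rose by 0.82 (adjusted p = 0.019), while Mrpl23 (0.39) and Mrpl52 (0.32) did not pass. Of 37 proteasome subunits tested, 0, 1 and 2 rose and 19, 31 and 29 fell, with medians of -0.51, -0.70 and -0.63, and 31 fell on day 3 with the replicate block. Psmc4, Psmd1 and Psmd14 each fell by 1.07 on day 5 (adjusted p = 5.2e-07, 4.2e-06 and 0.00024). The 2 that rose on day 10 were Psmb8 (2.37, adjusted p = 0.00013) and Psmb9 (1.36, adjusted p = 0.0057), subunits of the immunoproteasome, both at low levels.

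Of 73 subunits and related genes of the respiratory chain and ATP synthase, 3, 3 and 2 rose on days 3, 5 and 10. On the same days 3, 15 and 15 fell, and medians were -0.07, -0.22 and -0.25. With these counts, the shares that fell lay below the 16.1%, 24.8% and 25.1% of all genes that fell. The 15 lower on day 5 were 25 without library 4 of day 10, 24 without library 2 of day 5, 6 with libraries 3 and 4 averaged and 29 with the replicate block. The 15 lower on day 10 were 3 with libraries 3 and 4 averaged. With the replicate block they were 39, when 28.8% of all genes fell. Without library 4 of day 10, 11 were lower and the median was -0.13. The 3 lower on day 3 were 6 without library 2 of day 3 and 16 with the replicate block. Uqcrq, Cox5a and Ndufb6 were lowest on day 5 at -0.96 (limma adjusted p = 0.00016), -0.76 (adjusted p = 0.00048) and -0.74 (adjusted p = 0.0048). The 3 that rose were Ndufa6 (0.75, adjusted p = 0.0057), Ndufv3 (0.61, adjusted p = 0.00051) and Atp5sl (0.65, adjusted p = 0.00029), the last of which is no subunit of ATP synthase.

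**Figure D5:**
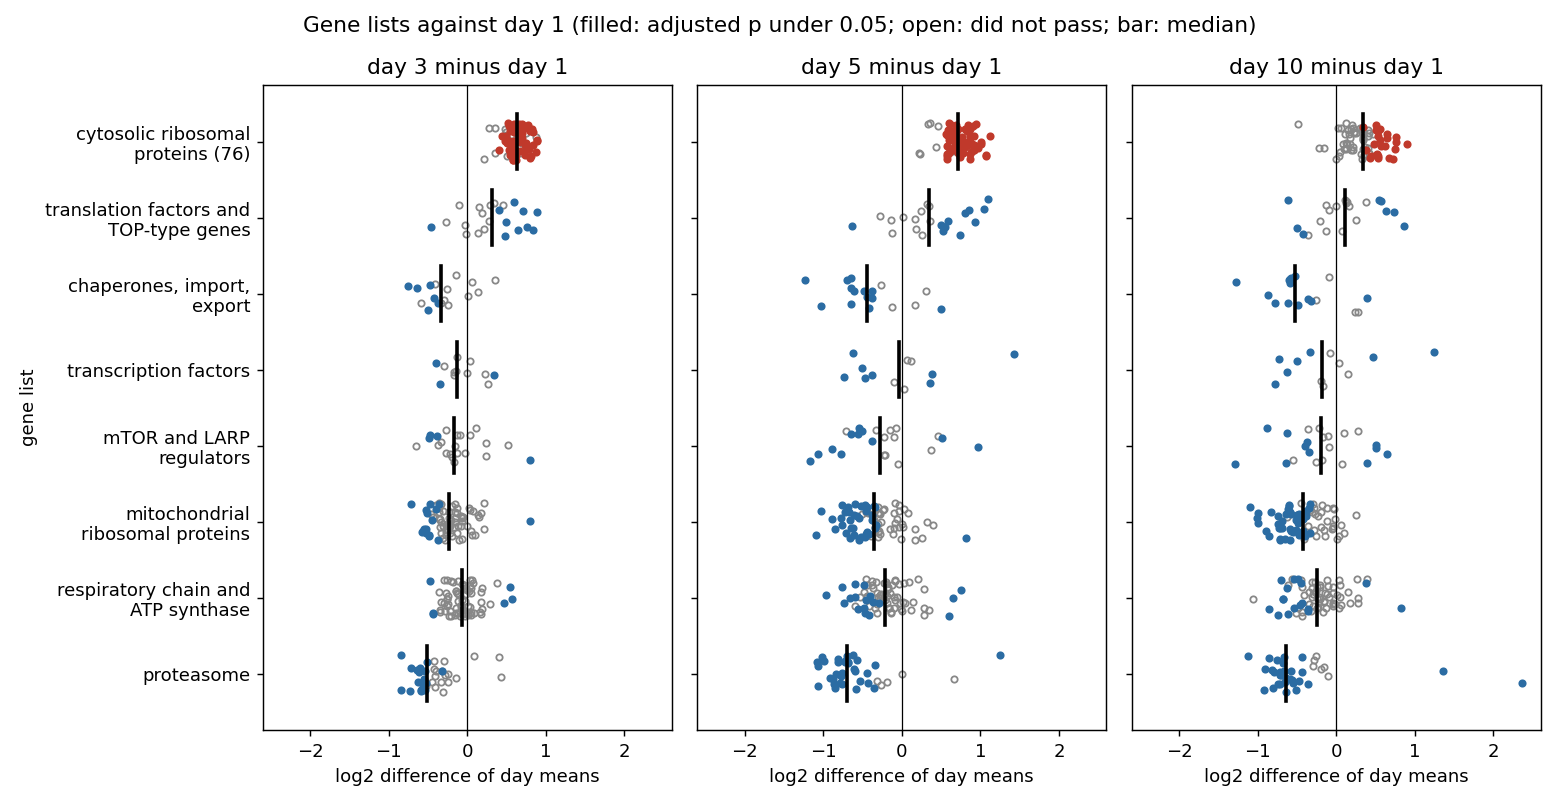
Log2 differences of day means (horizontal axis) of single genes in 8 lists (rows) for days 3, 5 and 10 minus day 1 (panels). Filled points passed the test, open points did not, and black bars are medians. The cytosolic ribosomal proteins in red have medians of 0.63, 0.72 and 0.34, to the right of 0, while the mitochondrial ribosomal proteins, at -0.23, -0.35 and -0.43, and the proteasome lie to its left.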

How the data were processed

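RNA sequencing covered total RNA of mouse GPLC cells in 15 libraries, and the labels' protocols give a depletion of ribosomal RNA. The submitters' processing notes list the build GRCm38 and, with no version given, the programs featureCounts, STAR and edgeR. Annotation, strand setting and handling of reads with several matches are not stated by any source at hand. The deposited values are a normalized signal per gene that the authors made from read counts. Dividing each library by its smallest step gave whole numbers, within 0.001, for 100% of values, so they were read as CPM scaled by a factor per library, and whole reads were recovered from them.

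Day means of log2(CPM + 1) were compared with limma 3.58.1 (trend, all libraries in 1 fit, library as replicate) for 12109 genes with a mean of day means of 1 CPM or more. Adjustment was by Benjamini-Hochberg over all of them, and called means an adjusted p under 0.05. The step was tested on simulated data. edgeR 4.0.16 and DESeq2 1.42.0 were run on the recovered reads. Coordinates and lengths are from GENCODE M21 on GRCm38, start windows from RefSeq (GRCm38.p6), and copies were searched with blastn 2.17.0.

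Members and gene lists were chosen with earlier results of these data known. Genes named were those with textbook roles, the 3 highest and 3 lowest per comparison, by level per length, by likeness and, in each list, by day 5 against day 1, and the 10 genes most alike. Others are said to be chosen after their values were seen. The fit had no block. Deviations of same-numbered libraries from their day means had r above 0.1 in 16 of 21 pairs, and in every pair for all comparisons but day 10 against day 1. This pairing comes from the data, as the labels do not state one, and values with the library number as a replicate block are given where they change a call. Array weights and the alternatives for the partner lists were added after seeing the data. Some genes are not reported here by name.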

Additional observations from a re-analysis of the deposited data

Results flagged for a closer look

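In groups of 4 libraries, a library stood apart when its gap to the nearest other, as a share of the day's range, exceeded Dixon's 95% critical value. Of 108 groups, the summed level and 35 named members on days 3, 5 and 10, this held for 6, and chance alone gives about 1 in 20. On day 3, library 2 stood above the others for Rpl10a at 399 CPM, for Rpl29 at 219.9 CPM, for Rpl38 at 602 CPM and for Rpl41 at 827 CPM. On day 10, library 4 stood below the others for Rpl39 at 84.1 CPM and for Rps25 at 126 CPM. The summed level of the members had no such library on any of these days.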

How the results depend on the processing

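Medians of the members kept their sign and stayed within 1 SD between libraries of the reported value under every pseudocount, filter, scaling and averaging tried, and so did the summed levels. Leaving out each library in turn gave medians of 0.53 to 0.70 for day 3 against day 1, 0.61 to 0.84 for day 5 against day 1, 0.29 to 0.45 for day 10 against day 1, -0.01 to 0.23 for day 5 against day 3, and -0.48 to -0.27 for day 10 against day 5. The mean summed level of day 1 then lay between 37274 and 38552 CPM and that of day 3 between 55103 and 62323 CPM. For day 5 it ran over 59100 to 69179 CPM and for day 10 over 47681 to 51873 CPM. Counts moved more. Without each library in turn, the members that rose against day 1 numbered 30 to 72 (day 3), 50 to 72 (day 5) and 16 to 44 (day 10). Between days 10 and 5, 0 to 7 fell. With libraries 3 and 4 averaged, 29 rose on day 3 and 9 on day 10, and 0 fell on day 10 against day 5. Rescaled to the total, with or without the members, 17 rose on day 10. With array weights, chosen after seeing the data, 60 rose on day 10 and 31 on day 5 against day 3. Of all genes, 33.7% and 28.7% then rose. With the same weights 65 fell on day 10 against day 5, when 17.1% of all genes fell. On day 10 against day 5, 5 fell with DESeq2 and 1 with no filter. With only the 2 days compared 0 fell, and with the library number as a replicate block 15. Of all genes, 3.45%, 1.18%, 0.180% and 5.25% fell in these fits. The block left the counts against day 1 at 55, 68 and 28, when 19.8%, 29.2% and 27.8% of all genes rose. Between days 10 and 1, same-numbered libraries had r of 0.26 for library 1 and -0.06 for libraries 3 and 4. The cause of these moves was not tested. Of 4900 values of single named members under 28 alternatives, 0 reversed, 169 lost their call and 133 gained one, where a value that passed in neither fit was counted as unmoved. Every library held at least 12492537 reads, and no alternative varied the depth.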
